A study of Mus musculus with 2 samples.

Results

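Fatty acid desaturases and elongases set the degree of unsaturation and the length of the acyl chains that the liver stores and secretes. The group described here holds 9 genes of the 12393 named on the arrays: the desaturase genes Scd1, Scd2, Fads1 and Fads2 and the elongase genes Elovl1, Elovl2, Elovl3, Elovl5 and Elovl6. They were chosen by name, and a probe set was taken where the platform annotation gave 1 of these symbols alone, which 17 of 22690 probe sets did. No further probe set listed a member together with another gene.

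The livers came from female mice labelled as apolipoprotein E-deficient, homozygous on a C57BL/6J background and 2 months old, a state shared by both diet groups. For 4 weeks 1 group ate chow with 10% (w/w) olive oil, and the other ate the same chow with the same share of an olive oil enriched with maslinic acid, a triterpene of the olive. The study used 12 mice, 6 per diet, but the series holds 2 arrays, 1 per diet, and the labels do not say whether RNA was pooled over mice. The comparison asks which liver transcripts differ when the oil contains maslinic acid. Without a replicate array no difference has a test, and every value below compares 2 arrays. In whole liver RNA, fewer cells of a type and less RNA per cell cannot be told apart.

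Both arrays had a 2% trimmed mean of 200.1, so their deposited MAS5 signals are on 1 scale. Signals under 40.0 were set to that floor, and a gene counted as measured where its brightest probe set reached 80.0 on at least 1 array, as 5911 genes did. All 11 hepatocyte markers on the array were measured, against 0 of 5 cholangiocyte markers. Apoe, the gene labelled as disrupted, read 407.7 on the olive oil array and 7630 on the maslinic acid array. Its log2 ratio of 4.23 was the largest of all measured genes. The labels give the knockout for both diets, and where the probes lie in the gene is not known here. Directions are therefore those between the arrays as labelled. With 1 array per diet, a difference in genotype or animal between the arrays cannot be told apart from diet.

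Fatty acid synthase makes palmitate, which Elovl6 lengthens to stearate. The stearoyl-CoA desaturases turn these chains into monounsaturated products, chiefly stearate into oleate, the main fatty acid of olive oil itself. The essential fatty acids linoleic and alpha-linolenic acid enter another route, in which desaturation by Fads2, elongation by Elovl5 and desaturation by Fads1 yield arachidonic and eicosapentaenoic acid, and Elovl2 carries the chain on towards docosahexaenoic acid. In liver, SREBP-1c, LXR and PPAR alpha act on many of these genes, and dietary polyunsaturated fat lowers their expression.

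The desaturases and elongases went in both directions between the arrays. On the maslinic acid array 5 of the 8 measured genes read lower, namely Fads2, Elovl5, Scd1, Fads1 and Elovl2, and 3 read higher, namely Scd2, Elovl1 and Elovl6. Among all measured genes 52.0% read lower and 48.0% higher. The median log2 ratio of the 8 genes was -0.13, against -0.01 over all measured genes. None of the 8 genes was 1.5-fold apart in either direction. That size was reached by 3.05% of all measured genes (1.47% higher and 1.57% lower), and none among 8 genes is near that share. The range ran from -0.48 for Fads2 to 0.34 for Scd2. On the brightest probe sets, the share of measured genes farther from 0 ran from 5.40% for Fads2 to 66.9% for Elovl6. Elovl3 stayed under the minimum signal. By probe set, 9 of the 14 measured ones read lower, against 50.7% of all measured probe sets that name 1 gene.

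**Figure D1:**
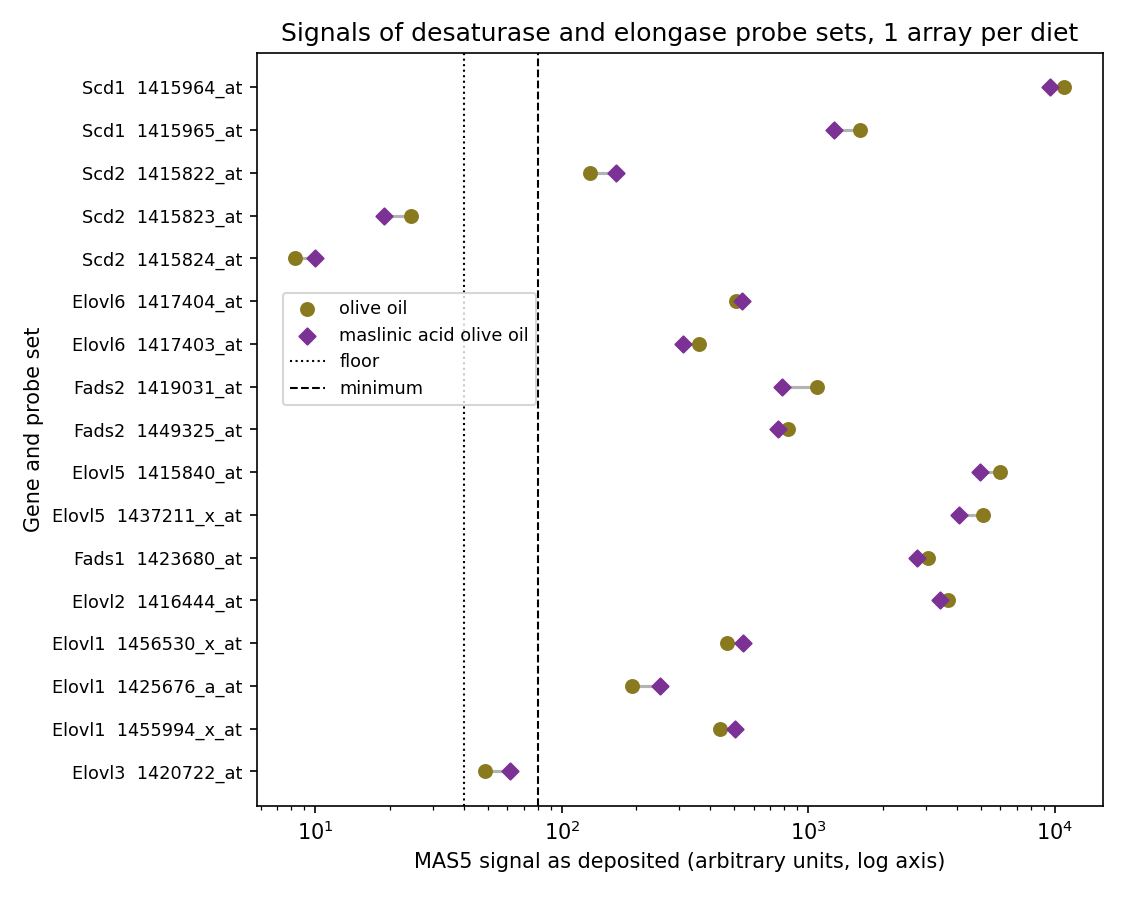
MAS5 signals as deposited, on a log axis, for the 17 probe sets of the 9 genes, with the olive oil array as circles and the maslinic acid array as diamonds. Dotted and dashed lines mark the floor of 40.0 and the minimum of 80.0. The pairs lie close together throughout, and both dim Scd2 probe sets lie left of the floor.

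Scd1 (Entrez gene 20249) encodes the main stearoyl-CoA desaturase of adult liver. Its brighter probe set read 10895 on the olive oil array and 9528 on the maslinic acid array, and its other probe set read 1620 and 1274. Both probe sets were thus lower on the maslinic acid array, at 87.4% and 78.6% of the olive oil signal, log2 ratios of -0.19 and -0.35. Of all measured genes, 31.1% lay farther from 0 than the former value and 10.9% farther than the latter. With quantile scaling of the arrays the brighter probe set moved to -0.04, while the other stayed at -0.34.

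Scd2 (Entrez gene 20250), a stearoyl-CoA desaturase with a wide expression outside the adult liver, went the other way. Its 1 measured probe set read 130.5 on the olive oil array and 165.6 on the maslinic acid array, a log2 ratio of 0.34 or 1.27-fold higher. The remaining probe sets, at 24.5 and 19.0 and at 8.3 and 10.0, lay under the floor on both arrays and carry no direction. The log2 ratios of Scd2 and Scd1 were 0.54 apart. In the RefSeq gene order of GRCm38.p6, Scd3, Scd2, Scd4 and Scd1 follow each other on chromosome 19. Of the neighbours, Scd3 was under the floor with both of its probe sets, at no more than 15.8, and Scd4 was not matched by name.

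Markers of other liver cell types also read higher on the maslinic acid array in some lists. Of 9 measured stellate cell markers 7 were higher, with a median log2 ratio of 0.21, led by Acta2 (0.35), Lum (0.34) and Vim (0.27), and a summed signal of 5241 on the olive oil array and 5285 on the other. The 2 lower ones were Dcn, at 2067 and 1810 (-0.19), and Rgs5 (-0.08). The other measured probe set of Rgs5 lay at -1.19, with its maslinic acid signal under the floor. All 5 measured lymphocyte and antigen presentation markers of 11 on the array were higher, with summed signals of 2648 and 3905. Of these Ighm, which encodes an immunoglobulin chain, had the largest log2 ratio (1.54, from 322.9 and 936.2). On their brightest probe sets the others lay between 0.22 (Cd74) and 0.50 (H2-Aa), with H2-Eb1 at 0.33. Other measured probe sets lay at 1.275 and 0.49 for Ighm, 0.56 for H2-Aa, and 0.89 and 0.34 for H2-Ab1. Cd3e, Cd79a and Ms4a1 lay under the floor. Of 12 measured macrophage markers 7 were higher and 5 lower (summed signals of 12224 and 12201). The sums hide Marco, a scavenger receptor gene, which read 338.1 and 84.6, a log2 ratio of -2.00 and the lowest of all measured genes. In the same list C1qb lay at 0.43 (0.31 and 0.10 with its other probe sets) and Adgre1 at -0.26. Of 8 measured endothelial markers 1 was higher and 7 lower (2766 and 2519), with Kdr at -0.49, Cdh5 at -0.32 and Stab2 at -0.17. Among 5 adipocyte markers on the array only Fabp4 was measured, at 263.9 and 355.6, and Adipoq read 41.0 and 30.6. Of 3 erythroid markers on the array only Alas2 was measured, at 94.1 and 150.9, a log2 ratio of 0.68. The part of these cell types in the Scd2 difference was not tested.

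Elovl6 (Entrez gene 170439), the elongase of palmitate, gave no single direction. Its brighter probe set read 509.3 on the olive oil array and 537.6 on the maslinic acid array, a log2 ratio of 0.08, and its other probe set read 360.6 and 309.2, a log2 ratio of -0.22. The gap of 0.30 between these probe sets exceeds the difference that either shows between the diets. It is not unusual on these arrays, since 36.1% of the 1814 genes with at least 2 measured probe sets had a larger gap.

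The 4 genes of the polyunsaturated route all read lower on the maslinic acid array, with all 6 of their probe sets. Their median log2 ratio was -0.21 over genes and over probe sets, against -0.01 over all measured genes. Over genes it was -0.16 with the trend of the log2 ratio with signal removed, and -0.16 with quantile scaling. Of all measured genes 52.0% read lower, and of those with a mean signal of 3000 or more, 75.6% did. The members were also chosen with earlier results of these data known, so the common direction is a description of these arrays.

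Fads2 (Entrez gene 56473), the desaturase that opens the route, had the largest difference of the 9 genes on their brightest probe sets. It read 1088 on the olive oil array and 782.5 on the maslinic acid array, 71.9% of the olive oil signal, a log2 ratio of -0.48. Of all measured genes 5.40% lay farther from 0 than this brighter probe set. The other Fads2 probe set read 827.8 and 755.0, a log2 ratio of -0.13, and 46.7% of measured genes lay farther from 0. The 2 probe sets thus had the same sign but sizes 0.34 apart. Their mean log2 ratio was -0.30 with an SD of 0.24 between probe sets, a technical spread within the same hybridisations. That mean is smaller in size than the 0.34 of Scd2, so the rank of Fads2 rests on its brighter probe set.

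Elovl5 (Entrez gene 68801), which lengthens the product of Fads2, was the member whose probe sets lay closest to each other. The brighter probe set read 5975 on the olive oil array and 4967 on the maslinic acid array, and the other read 5094 and 4073. The log2 ratios were -0.27 and -0.32, that is 83.1% and 80.0% of the olive oil signal. Removing the trend of the log2 ratio with signal left -0.20 and -0.26.

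Fads1 (Entrez gene 76267), the desaturase that completes arachidonic and eicosapentaenoic acid, read 3059 on the olive oil array and 2753 on the maslinic acid array with its 1 probe set, a log2 ratio of -0.15. Elovl2 (Entrez gene 54326), the elongase of the longest polyunsaturated chains, read 3670 and 3414, a log2 ratio of -0.10. Of all measured genes 40.7% and 56.9% lay farther from 0 than these values. Fads3, Fads2 and Fads1 are neighbours on chromosome 19 in the same gene order, and Fads3 read 12.6 and 5.1 with its brighter probe set, under the floor.

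**Figure D2:**
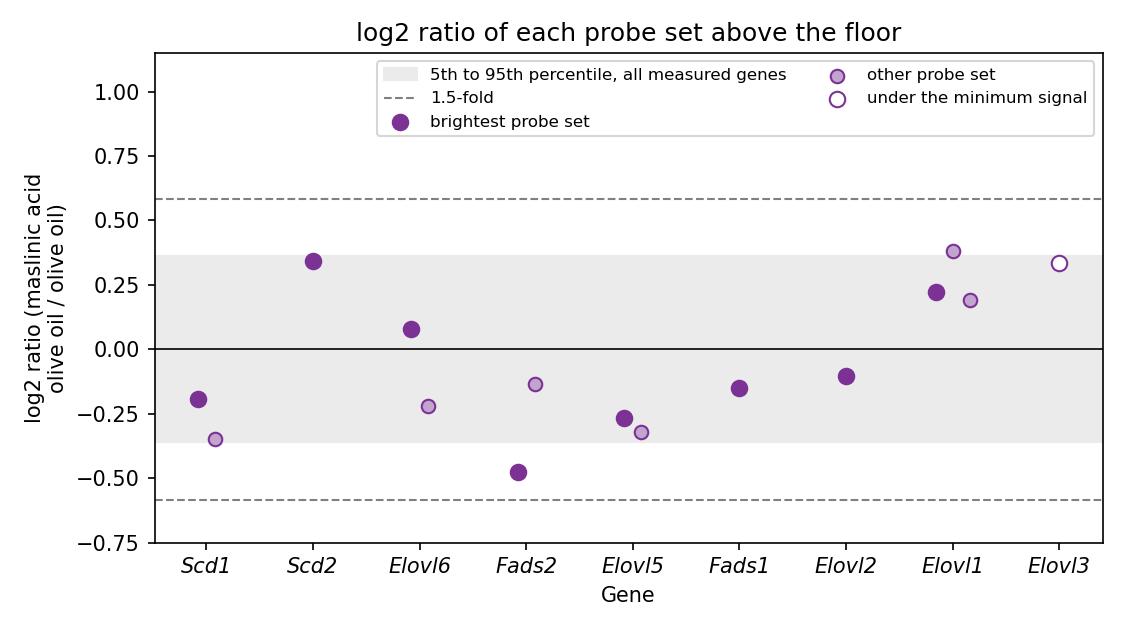
Log2 ratio of the maslinic acid array over the olive oil array for each probe set above the floor, ordered by route, with the brightest probe set of each gene as a large dark point and Elovl3, under the minimum signal, as an open one. The grey band spans the central range of all measured genes, from -0.36 to 0.36, and dashed lines mark 1.5-fold. Fads2 lies below the band with 1 of its probe sets, Elovl1 lies above it with 1, and no point reaches 1.5-fold.

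Promoter sequence is shown for 3 members, because they span the differences: Fads2 and Elovl5 read lower and Elovl1 read higher with every measured probe set. Each window runs from 250 bases before to 50 bases after the RefSeq start, 5′ to 3′ on the strand of the gene, in GRCm38.p6. Elovl1 has 2 RefSeq windows, and the one shown is the first by position. Capitals mark each match, on either strand, to CCAAT, the box bound by NF-Y, to the E-box CACGTG, to AGGTCA, a half-site of nuclear receptors such as PPAR alpha and LXR, or to the GC box GGGCGG.
Fads2, chr19:10101454-10101753, minus strand: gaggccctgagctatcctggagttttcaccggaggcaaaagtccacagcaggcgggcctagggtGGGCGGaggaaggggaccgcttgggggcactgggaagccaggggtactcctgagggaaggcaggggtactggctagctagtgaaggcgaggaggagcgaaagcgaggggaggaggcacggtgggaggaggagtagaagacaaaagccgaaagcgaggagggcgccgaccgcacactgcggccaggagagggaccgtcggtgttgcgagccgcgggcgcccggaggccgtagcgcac
Elovl5, chr9:77917115-77917414, plus strand: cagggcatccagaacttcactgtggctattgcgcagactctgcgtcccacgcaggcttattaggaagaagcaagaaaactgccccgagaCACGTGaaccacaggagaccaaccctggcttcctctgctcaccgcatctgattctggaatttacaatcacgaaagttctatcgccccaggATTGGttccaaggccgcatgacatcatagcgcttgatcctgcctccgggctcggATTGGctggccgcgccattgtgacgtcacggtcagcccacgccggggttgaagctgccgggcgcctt
Elovl1, chr4:118427843-118428142, plus strand: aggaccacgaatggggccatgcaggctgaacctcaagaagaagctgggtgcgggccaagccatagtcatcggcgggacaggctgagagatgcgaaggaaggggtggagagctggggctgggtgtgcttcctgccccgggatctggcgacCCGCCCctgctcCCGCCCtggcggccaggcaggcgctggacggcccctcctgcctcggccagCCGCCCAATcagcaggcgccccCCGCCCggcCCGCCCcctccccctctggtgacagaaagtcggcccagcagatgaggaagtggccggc

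The Elovl5 window held 2 CCAAT boxes on the opposite strand, with first bases at -71 and -17 from the start, and an E-box at -161. The Fads2 window held 1 GC box at -186 and no match to the other motifs. The Elovl1 window held 5 GC boxes and 1 CCAAT box, the latter overlapping a GC box, whereas the other Elovl1 window held 2 GC boxes, 1 AGGTCA and no CCAAT. The RefSeq promoter table held 7 windows for 5 members (Elovl1, Elovl2, Elovl5, Elovl6 and Fads2), and Fads1, Scd1, Scd2 and Elovl3 were not matched. CCAAT was present in 2 of these 7 windows and in 37.4% of all 32851 windows, GGGCGG in 4 of 7 and in 35.7%, AGGTCA in 2 of 7 and in 16.3%, and CACGTG in 1 of 7 and in 7.15%. Genes with lower and higher signals both carried CCAAT, and these matches are a description of the windows only.

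Elovl1 (Entrez gene 54325), which makes the saturated very long chains of sphingolipids, was the member that read higher with several probe sets. They read 467.8, 440.1 and 191.8 on the olive oil array and 545.4, 502.4 and 249.9 on the maslinic acid array. The log2 ratios were 0.22, 0.19 and 0.38, a mean of 0.26 with an SD of 0.10 between probe sets. The smaller log2 ratios come from _x_at probe sets, which can read several transcripts, and without them the remaining value is 0.38. Degs1, a related desaturase that introduces the double bond of ceramides, read 1049 and 1104, a log2 ratio of 0.07, and 0.03 with its other probe set.

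Elovl3 (Entrez gene 12686) makes very long saturated and monounsaturated chains and is known in mouse liver for higher expression in males and for a daily rhythm. Its 1 probe set read 49.0 on the olive oil array and 61.8 on the maslinic acid array, above the floor but under the minimum. The log2 ratio of 0.33 became 0.0 with the floor raised to 200 on the scale of a trimmed mean of 500, so its direction is not held here. Of the other male-biased liver genes on the array 3 of 7 were measured, with a median log2 ratio of -0.09, while Hsd3b5, Cyp4a12a, Slco1a1 and Ugt2b38 lay under the floor on both arrays. Elovl4 and Elovl7 also lay under the floor on both arrays, with signals of at most 13.1.

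Agreement between probe sets was the only repeat measurement. Of the 5 members with at least 2 measured probe sets, 4 (Scd1, Fads2, Elovl1 and Elovl5) had 1 sign throughout. Over all genes with at least 2 measured probe sets 48.1% did so. Within a gene, the log2 ratios of its measured probe sets had an SD of 0.23. The log2 ratios of Scd1, Fads1, Elovl1, Elovl2 and Elovl6 on their brightest probe sets were smaller than that SD.

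Among the 8 measured members, on their brightest probe sets, the direction of the log2 ratios went with signal strength. The 5 genes that read lower had mean signals from 935.2 to 10211, and the 3 that read higher had mean signals from 148.1 to 523.5. Elovl6, counted as higher, lay at -0.22 with its other probe set, whose mean signal was 334.9. With the mean of all measured probe sets, 6 members read lower and 2 higher. Among the 291 measured genes with a mean signal of 3000 or more, 75.6% read lower, with a median log2 ratio of -0.08. The values were 54.5% and -0.02 among the 682 genes between 1000 and 3000, where Fads1 lies. They were 51.3% and -0.01 among the 2508 genes between 200 and 1000, where Fads2 lies. All 11 measured hepatocyte markers also read lower on their brightest probe sets, among them Ttr (-0.23), Hnf4a (-0.22) and Alb (-0.21), with a median of -0.17 and summed signals of 98200 and 88398. By probe set, 17 of their 19 measured ones read lower. The others were 1 of Hnf4a, at 909.0 on the olive oil array and 1418 on the maslinic acid array, a log2 ratio of 0.64, and 1 of Tdo2, at 0.12. With the signal trend removed, the median of the desaturases and elongases was -0.08 and that of the hepatocyte markers -0.09, while Fads2 stayed at -0.47, Scd1 lay at -0.10, Fads1 at -0.11 and Elovl2 at -0.06. The part of hepatocyte content in these differences was not tested.

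**Figure D3:**
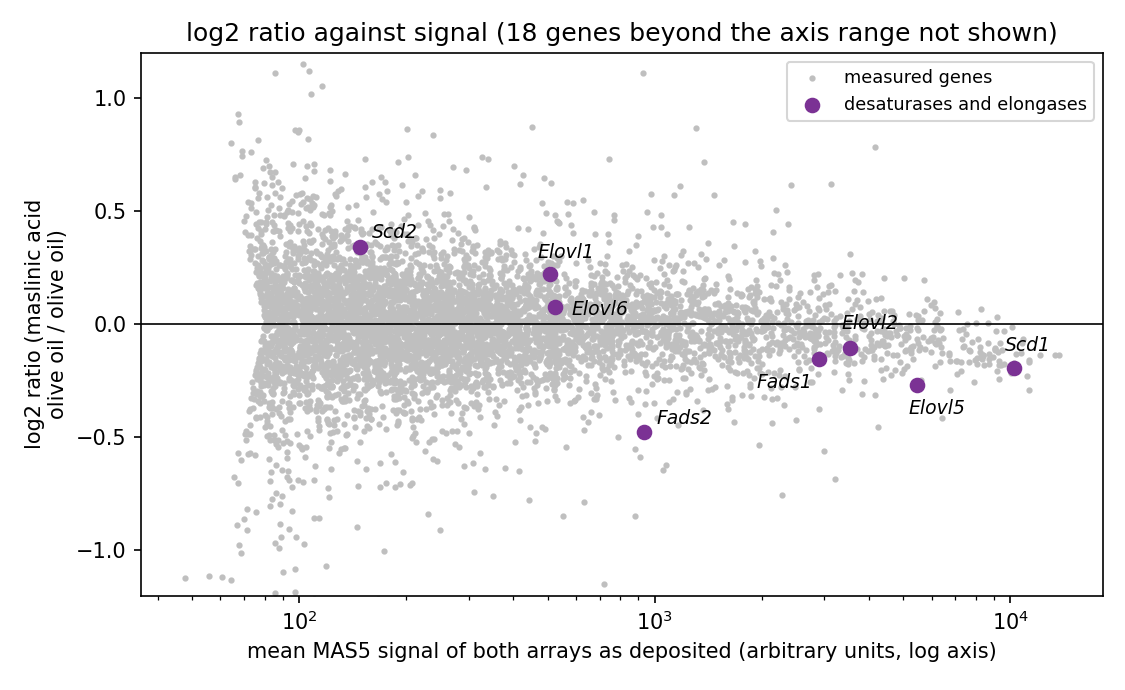
Log2 ratio of the maslinic acid array over the olive oil array against the mean signal of both arrays on a log axis, for the 5911 measured genes in grey and the 8 measured desaturases and elongases in purple. Genes beyond 1.2 on the log2 axis, 18 in all, are not shown. Fads2 lies lowest of the 8 at -0.48, and genes at the bright end sit mostly below 0.

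Elongation takes place in a cycle in which the elongase adds the carbons and other enzymes reduce and dehydrate the product. Of the 6 partner genes measured, 5 read lower and 1 higher on the maslinic acid array, with a median log2 ratio of -0.14. Among all measured genes 52.0% read lower. None of the 6 was 1.5-fold apart, which is near the share of 3.05% among all measured genes. Hacd4, a dehydratase gene, read 111.5 on the olive oil array and 77.4 on the maslinic acid array, a log2 ratio of -0.53, with the latter signal under the minimum. Hacd3, of the same family, lay at -0.20, with other probe sets at -0.13 and -0.02. Hsd17b12, the ketoacyl reductase gene, lay at -0.19 and at 0.02 with its other probe set. Tecr, the final reductase, lay at 0.05.

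Desaturases draw electrons from cytochrome b5 and its reductase. Of 4 measured genes of this supply 3 read lower and 1 higher, with a median log2 ratio of -0.03. Cyb5a, the microsomal cytochrome b5, read 7630 on the olive oil array and 7123 on the maslinic acid array, a log2 ratio of -0.10. Cyb5r3, a cytochrome b5 reductase, lay at 0.16, and its other measured probe sets lay at 0.03 and 0.35. Cyb5r4 lay at -0.04.

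The enzymes that supply saturated acyl chains were split, with 4 of 7 measured genes lower and 3 higher and a median log2 ratio of -0.11. Fasn, the fatty acid synthase gene, read 2717 on the olive oil array and 2244 on the maslinic acid array, a log2 ratio of -0.28. Acly, which makes cytosolic acetyl-CoA, read 2462 and 1962, a log2 ratio of -0.33, and its other measured probe sets lay at -0.38 and -0.30. Acacb, an acetyl-CoA carboxylase gene, lay at -0.36. Acaca, the other acetyl-CoA carboxylase gene of the list, read 26.8 and 25.4, under the floor on both arrays. Thrsp, a lipogenic gene responsive to thyroid hormone, went the other way at 0.23, and 0.35 with its other probe set. The 5 measured acyl-CoA synthetase genes lay between -0.06 (Acsl5) and 0.12 (Acsl4) on their brightest probe sets, with Slc27a4 at 0.07. The other measured probe set of Acsl4 lay at -0.13.

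Of 11 measured regulators 6 read higher and 5 lower on the maslinic acid array, with a median log2 ratio of 0.03. None was 1.5-fold apart, a size that 3.05% of all measured genes reached. Srebf1, which encodes SREBP-1c, read 1791 on the olive oil array and 1403 on the maslinic acid array, a log2 ratio of -0.35. Ppara, the gene of PPAR alpha, read 1541 and 1187, a log2 ratio of -0.38. Nr1h3, the gene of LXR alpha, read 331.8 and 406.9, a log2 ratio of 0.29. Each of these rests on 1 probe set. The lower regulators thus included Srebf1 and Ppara, and the higher ones Nr1h3.

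**Figure D4:**
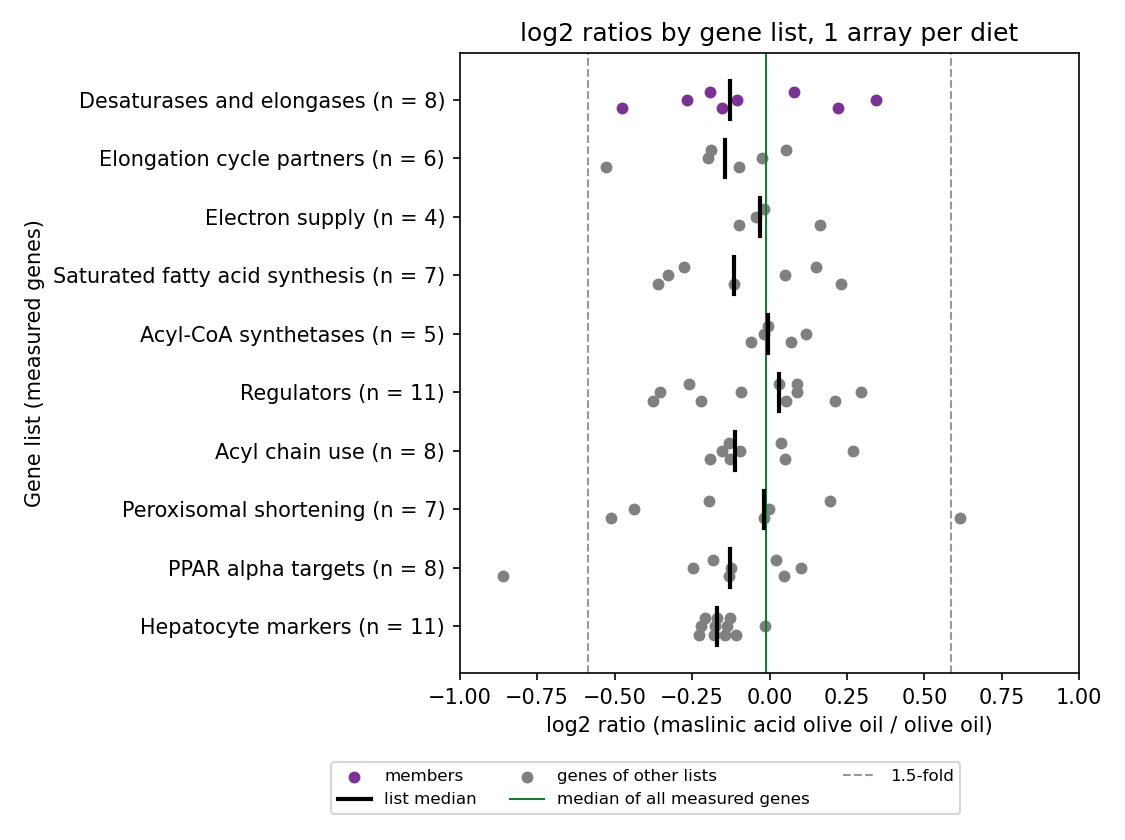
Log2 ratios of the maslinic acid array over the olive oil array for each measured gene of 10 lists, with the desaturases and elongases in purple, list medians as black bars, the median of all measured genes (-0.01) as a green line and 1.5-fold as dashed lines. The list medians lie between -0.17 for hepatocyte markers and 0.03 for regulators, and 2 genes lie past 1.5-fold, 1 on either side.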

How the data were processed

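Liver RNA of 2 diets was hybridised to 1-colour Affymetrix arrays, 1 per diet. The authors deposited 1 intensity per probe set on a linear scale, summarised by MAS5 (per the submitters' processing notes). No label or header states the MAS5 version or its parameters, and detection calls were not used here. The signals of each array were multiplied to a 2% trimmed mean of 500, floored at 100 (40.0 as deposited) and log2-transformed. Signals are printed as deposited. A gene was represented by the brightest probe set, on the mean of both arrays, that named it alone, and counted as measured at 200 or more (80.0 as deposited) on at least 1 array. The 64 control probe sets named no gene. Of all probe sets, 20393 had 1 gene in the platform annotation, 691 had several and 1606 had none. Signals of different probe sets are set side by side or summed as brightness only, not as transcript levels.

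Differences are described by size, with no test, since each diet has 1 array and the number of arrays limits the precision. Counts at 1.5-fold stand beside those over all measured genes. All 9 members are named, and of each list every measured gene at least 1.5-fold apart and up to 3 with the largest absolute log2 ratio, plus Apoe; further genes named from the lists were chosen after their values were seen. The members and lists were chosen with earlier results of these data known. Alternatives changed scaling, floor, minimum, probe set rule and probe set types. The steps were tested on simulated data with known changes in 200 genes. Those changes were larger than 1.5-fold, so the simulation does not bear on differences of the size seen in the members. Promoters came from RefSeq (GRCm38.p6). Python 3.11.15, pandas 2.3.3 and statsmodels 0.14.6 were used.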

Additional observations from a re-analysis of the deposited data

How the results depend on the processing

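The 97 values of the 9 genes under the alternatives kept their sign except for Elovl6 (-0.07 as the mean of its probe sets), and 96 moved by less than the SD of 0.23 between probe sets of a gene. The exception was Elovl3, at 0.0 with a floor of 200. Fads2 ranged from -0.49 to -0.30, Elovl5 from -0.29 to -0.20, Scd1 from -0.27 to -0.04, Elovl1 from 0.21 to 0.38, and the median of the measured members from -0.13 to -0.06. In every alternative 0 members were 1.5-fold apart. Leaving out the _x_at and _s_at probe sets, 3 member probe sets read higher in place of 5, since probe sets were dropped, and the median of female-biased genes was 1.10 over 6 genes in place of 0.73 over 7. Of 198 list medians 6 changed sign, none beyond 0.12 from 0. The sign turned for electron supply and regulators with the mean of all probe sets (0.01 and -0.04), for acyl-CoA synthetases with quantile or loess scaling (0.05 and 0.06), for peroxisomal shortening with loess scaling (0.03) and for clock genes with the minimum on the mean signal (-0.11). The deposited scaling nearly repeated the main one. No paired analysis was possible because there is 1 array per diet, and for the same reason no array could be left out. Low signals limit Scd2 and Elovl3 the most.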

Other observations

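Genes of acyl chain use, which take up the products of these enzymes, also stayed under 1.5-fold, a size that 3.05% of all measured genes reached. Of 8 measured genes of acyl chain use 5 read lower and 3 higher on the maslinic acid array, with a median log2 ratio of -0.11. Lcat, which esterifies plasma cholesterol with an acyl chain of phosphatidylcholine, lay at -0.19, Agpat3 at -0.15 and Dgat1, a triglyceride synthesis gene, at 0.27. Peroxisomal chain shortening, the last stage of docosahexaenoic acid synthesis, had a median of -0.02 over 7 genes. In that list Ehhadh lay at -0.44. Abcd2, a peroxisomal importer of acyl chains, read 99.8 on the olive oil array and 70.0 on the maslinic acid array, a log2 ratio of -0.51. It passed the minimum only on the array where it was higher. Acaa1a was 1.53-fold higher at 153.4 and 235.0, but lay at 0.11 with its other probe set.

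PPAR alpha targets had a median of -0.13 over 8 measured genes, with 5 lower and 3 higher. Fgf21 read 90.4 on the olive oil array and 49.8 on the maslinic acid array, a log2 ratio of -0.86, and it passed the minimum only on the array where it was higher. Cpt1a, the gate of mitochondrial fatty acid import, lay at -0.25, with other probe sets at -0.17 and 0.56, and Acot1 at -0.18. Clock genes, 12 of them measured, split into 6 higher and 6 lower, with a median of 0.07. Per1 lay at -0.57, Nr1d1 at 0.60, Cry2 at 0.93 and Dbp at 1.79, but all 4 are dim and passed the minimum only on the array where they were higher. With the minimum on the mean signal 8 clock genes were measured, with a median of -0.11. Female-biased liver genes had a median of 0.73 over 7 measured genes, with 6 higher and 1 lower. The lower one was Cyp3a44, at -0.01, and Sult3a1 lay at 0.23. Cyp2b9 and Cyp2b13, at least 16.5-fold and 6.30-fold higher against the floor, passed the minimum only on the maslinic acid array, Cyp3a16 lay at 1.47 and Cyp17a1 at 0.73, both past 1.5-fold higher as 1.47% of all measured genes were. Of the male-biased genes, Cyp2d9 lay at 0.14, Gstp1 at -0.15 and Cyp7b1 at -0.09.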
